A study of Mus musculus with 2 samples.

Results

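Transcript levels of 10 non-collagen basement membrane genes were described in mouse embryonic stem cells. They are the laminin chain genes Lama1, Lama4, Lama5, Lamb1, Lamb2 and Lamc1, the nidogen genes Nid1 and Nid2, the perlecan gene Hspg2, and Sparc. They were chosen by gene symbol, through the Ensembl identifier of each row of the deposited count table, and all 10 were found among 46983 genes. The knockdown group was 1 RNA sequencing library of 46C embryonic stem cells carrying a short hairpin RNA that targets linc1557, a long noncoding RNA, and the control group was 1 library of 46C cells carrying a control hairpin. In both groups the hairpins were delivered by virus in the pLKO.1-TRC vector, infected cells were selected with puromycin, and stable clones were picked. Both were grown on feeder cells with fetal bovine serum and leukaemia inhibitory factor (LIF). A LIF-free culture is also described in the protocols, but neither library is labelled as coming from it. How many clones entered each library is not stated in the labels. The series title ties linc1557 to LIF/STAT3 signalling when differentiation begins, and the comparison asks how the basement membrane genes differed between these libraries.

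The basement membrane is a thin sheet of extracellular matrix that underlies epithelia and surrounds muscle, fat and vessels. Each laminin consists of an α, a β and a γ chain, which join inside the cell before secretion. Laminins then assemble into a sheet at the cell surface, where integrins and dystroglycan bind them. Nidogens and perlecan tie the laminin sheet to the collagen IV network. In the early mouse embryo the inner cell mass and the primitive endoderm make laminins, and the parietal endoderm lays down a thick basement membrane rich in laminin, collagen IV, nidogen and SPARC.

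With 1 library per group there was no replicate check and no test of the conditions, so every difference is between these 2 libraries. Total counts were 26693282 for knockdown and 23146210 for control. Normalised CPM is the count per 1000000 counts after scaling by TMM (trimmed mean of M values) factors, and 15850 genes that reached 1 CPM in either library entered the comparison. A scarce gene could enter through 1 library alone, where it was high, so calls among scarce genes follow in part from this rule. Calls of higher or lower required a knockdown over control ratio of 2-fold or more whose exact 95% counting interval left out 1. Intervals cover counting error only and not the spread between cultures or clones. Genes of the pluripotent state were well covered, with all 14 naive and core pluripotency genes entered, 1 called higher and none lower, and the Pou5f1 ratio was 0.13 on the log2 scale. The level of linc1557 itself was not analysed here.

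All 10 genes entered the comparison. Of these, Lamb1 and Lama5 were called lower in the knockdown library, none was called higher and 8 were not called. Over all entered genes 9.48% were called lower and 4.68% higher, and a count of 2 among 10 is not read as a property of the group. The log2 ratio was below 0 for 8 genes and above 0 for Lama1 and Lamc1, with a median of -0.55, beside 0.02 over all entered genes. The genes therefore did not share 1 direction. Scaling by total counts in place of TMM shifted the median of all genes to -0.10, and that of the 10 genes to -0.67, without turning the direction of any of the 10. Of 30 markers of feeder fibroblasts, on which the cells were grown, 20 were called lower and none higher; in bulk RNA, fewer cells of a type and less RNA per cell cannot be told apart. Together the 10 genes took 0.115% of all knockdown counts (0.114 to 0.116) and 0.163% of all control counts (0.162 to 0.165; 95% Wilson intervals).

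Upstream sequence is shown for the called genes Lama5 and Lamb1, which were lower by similar amounts, and for Nid1 and Hspg2, which were not called. The sequences are from RefSeq on GRCm38.p6, whose promoter table matched 6 of the 10 genes. Each line gives the gene's own strand, 5′ to 3′, from 250 bases before the RefSeq start and ending before the first annotated exon in either RefSeq or GENCODE. Capitals mark the GC box GGGCGG, or CCGCCC where it lies on the opposite strand.
Lama5, chr2:180225860-180226109, minus strand: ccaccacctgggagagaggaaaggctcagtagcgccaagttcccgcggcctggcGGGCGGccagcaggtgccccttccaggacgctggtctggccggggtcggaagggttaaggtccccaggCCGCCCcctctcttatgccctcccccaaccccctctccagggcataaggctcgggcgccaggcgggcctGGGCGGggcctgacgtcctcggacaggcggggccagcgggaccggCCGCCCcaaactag
Lamb1, chr12:31265043-31265233, plus strand: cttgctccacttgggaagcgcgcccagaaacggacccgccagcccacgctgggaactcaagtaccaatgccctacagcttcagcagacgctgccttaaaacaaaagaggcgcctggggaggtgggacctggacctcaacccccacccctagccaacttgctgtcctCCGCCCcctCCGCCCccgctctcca
Nid1, chr13:13437352-13437550, plus strand: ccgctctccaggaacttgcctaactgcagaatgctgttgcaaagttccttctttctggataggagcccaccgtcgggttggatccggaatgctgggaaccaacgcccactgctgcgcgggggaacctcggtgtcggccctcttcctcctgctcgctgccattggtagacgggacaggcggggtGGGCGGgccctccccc
Hspg2, chr4:137468553-137468768, plus strand: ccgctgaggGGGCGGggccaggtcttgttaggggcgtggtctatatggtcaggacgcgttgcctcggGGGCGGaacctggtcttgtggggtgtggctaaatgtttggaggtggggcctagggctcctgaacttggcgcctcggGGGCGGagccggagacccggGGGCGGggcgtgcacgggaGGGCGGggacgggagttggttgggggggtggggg

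The GC box, letters that SP and KLF factors are known to bind, occurred 4 times upstream of Lama5, 2 times upstream of Lamb1, 1 time upstream of Nid1 and 5 times upstream of Hspg2. It was therefore found in called and uncalled genes alike. The window of 250 bases upstream of the RefSeq start held it in 32.7% of 32851 RefSeq promoters, with both strands read. Neither the Lamb2 nor the Sparc window held it. The whole Sparc window lies inside the gene as annotated by GENCODE. The Lamb2 window runs past the GENCODE start of its gene, as do those of Lamb1, Nid1 and Hspg2. The G and C content of these windows was 72.4% for Lama5, 62.0% for Lamb1, 64.4% for Nid1, 70.0% for Hspg2, 54.0% for Sparc and 43.6% for Lamb2, beside a median of 52.4% over all promoters. The TATA box TATAAA (12.4% of all promoters), the AP-1 site TGACTCA (4.46%), the GATA site AGATAA (9.99%) and the E-box CACGTG (6.02%) were in none of the 6 windows on either strand. A match or its absence describes these letters only.

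The α chains give a laminin its identity and carry the C-terminal globular domains that bind receptors. Lama5 encodes α5, the chain of most epithelial basement membranes after early development and one that embryonic stem cells themselves make. It had 2701 counts in the knockdown library, against 5289 in the control library. As normalised CPM this was 105 in knockdown RNA and 219 in control RNA, a 2.08-fold lower level with an interval from 1.99 to 2.18. The knockdown value lay below the control value, and the interval reached just under the 2-fold threshold. Lama5 (ENSMUSG00000015647) lies on chromosome 2 from 180176373 to 180225859 on the minus strand, and its coding transcript has 79 exons.

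Lama1 encodes α1, the chain of the first basement membranes of the embryo. It went the other way, with 2088 counts in the knockdown library, against 1288 in the control library, or 81.5 normalised CPM in knockdown RNA and 53.4 in control RNA. The ratio of 1.53 (1.42 to 1.64) was under 2-fold and was not called. It was the highest ratio among the 10 genes and lay at percentile 88.3 of all entered genes. Lama1 (ENSMUSG00000032796) spans 125389 bases of chromosome 17, from 67697259 to 67822647.

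Lama4 encodes α4, a chain of vessel walls, muscle and other mesenchymal tissue that lacks the N-terminal short arm. It was the least abundant of the 10 genes, with 218 counts in the knockdown library, against 385 in the control library. Its level was 1.88-fold lower with an interval from 1.59 to 2.23, which takes in 2-fold, and the gene was not called. Scaled by total counts it was called, at a log2 ratio of -1.03. The remaining α genes were rare. Lama3 had 228 counts in knockdown RNA and 151 in control RNA (log2 ratio 0.51, not called), and Lama2, the α chain of muscle, had 44 in knockdown RNA and 94 in control RNA and was called lower (-1.18).

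The balance between the α chains can be read without any scaling, since the ratio of the counts of a pair of genes within a library does not depend on library size, and gene length cancels between libraries. There were 0.773 Lama1 counts for each Lama5 count in knockdown RNA and 0.244 in control RNA. The Lama1 to Lama5 ratio was thus 3.17 times as high in the knockdown library (exact conditional interval 2.92 to 3.45). For Lama5 and Lama4 there were 12.4 Lama5 counts per Lama4 count in knockdown RNA and 13.7 in control RNA. This gave a ratio of ratios of 0.902 whose interval from 0.757 to 1.08 includes 1.

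The β chains were both lower in value. Lamb1 encodes β1, which pairs with γ1 in most embryonic laminins. It had 1797 counts in the knockdown library, against 3770 in the control library, or 70.1 normalised CPM in knockdown RNA and 156 in control RNA. This was a 2.23-fold lower level (2.11 to 2.36), the largest difference among the 10 genes, and its whole interval lay beyond 2-fold. Among all 15850 entered genes it ranked 1217 from the lowest log2 ratio. Lamb1 (ENSMUSG00000002900) lies on chromosome 12 from 31265234 to 31329644.

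Lamb2 encodes β2, the β chain of the neuromuscular junction and the kidney glomerulus. It had 574 counts in the knockdown library, against 700 in the control library, and was 1.30-fold lower in level (1.16 to 1.45), which was not called. Counts of Lamb2 per Lamb1 count were 0.319 in knockdown RNA and 0.186 in control RNA, so that this balance was 1.72 times as high in the knockdown library (1.52 to 1.95). Lamb3, the β chain of skin laminin, was rare, with 21 counts in knockdown RNA and 47 in control RNA, and was called lower (log2 ratio -1.25).

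Lamc1 encodes γ1, the γ chain of nearly all laminins outside skin and the one that binds nidogen. Mouse embryos without it form no basement membrane. It had 7037 counts in the knockdown library, against 5858 in the control library, or 275 normalised CPM in knockdown RNA and 243 in control RNA. The ratio was 1.13 (1.09 to 1.17) and was not called. Lamc1 and Lamb1, whose products join in the same molecules, had 3.92 Lamc1 counts per Lamb1 count in knockdown RNA and 1.55 in control RNA. That balance was 2.52 times as high in the knockdown library (2.36 to 2.69). Of all 11 laminin chain genes 10 entered, with the exception of Lamc3, and 4 were called lower and none higher, with a median log2 ratio of -0.64. The share of all entered genes called lower was 9.48%.

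**Figure D1:**
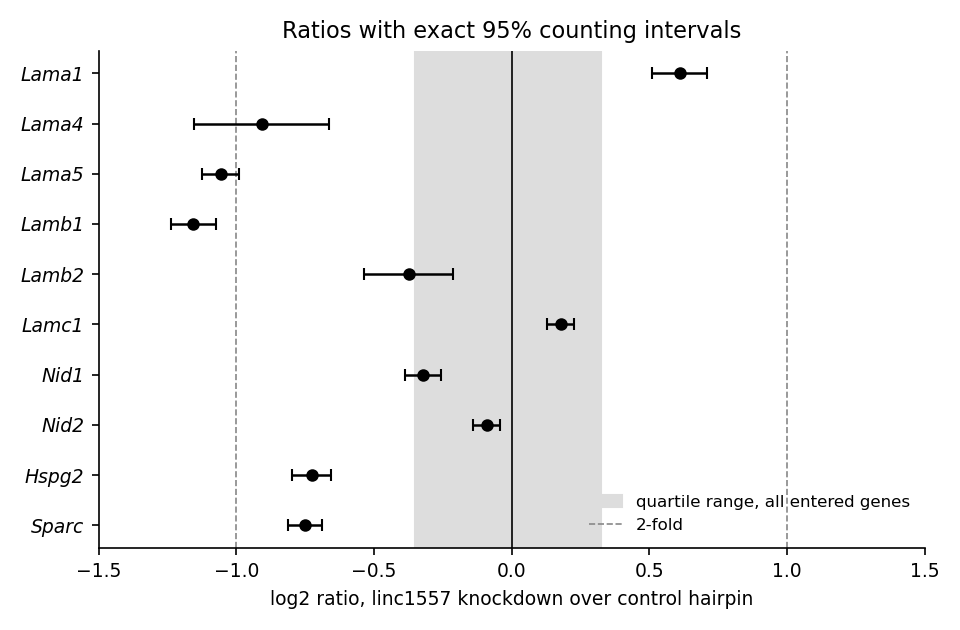
Log2 ratios of the 10 genes, linc1557 knockdown over control hairpin (x axis), 1 row per gene. Points are ratios of 1 library against 1 library, bars are exact 95% counting intervals, dashed lines mark 2-fold, and the grey band spans the quartiles of all entered genes from -0.35 to 0.33. Lamb1 at -1.16 and Lama5 at -1.06 lie beyond the lower 2-fold line, Lama4 at -0.91, Sparc at -0.75 and Hspg2 at -0.73 lie between that line and the band, and Lama1 at 0.61 lies above it.

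Levels of different chains were compared per kilobase of the deposited gene length. In this unit γ chains summed to 33.9 normalised CPM per kb in knockdown RNA and 30.2 in control RNA. The α chains summed to 19.5 in knockdown RNA and 27.0 in control RNA, and the β chains to 10.9 in knockdown RNA and 20.8 in control RNA. The γ sum was 3.11 times the β sum in knockdown RNA and 1.45 times in control RNA. The β chains were therefore the scarcest class in both libraries by this length, and the gap was wider in the knockdown library.

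Within the α class, Lama1 made up 44.0% of the per-length level in knockdown RNA and 20.8% in control RNA. Lama5 made up 47.6% in knockdown RNA and 71.3% in control RNA. The per-length level of Lama1 was 0.925 times that of Lama5 in knockdown RNA and 0.291 times in control RNA. Lamb1 made up 65.0% of the β class in knockdown RNA and 75.7% in control RNA, and Lamc1 98.01% of the γ class in knockdown RNA and 97.4% in control RNA. The length used matters for these levels, and by the median coding transcript length, which short annotated fragments lower, the β sum was the highest of the classes in both libraries. Per kilobase of the longest annotated coding transcript, which for Lamb1 has 5784 bases in place of the deposited 9917, the β sum was 16.3 in knockdown RNA and 32.6 in control RNA. In the control library β then stood above the α sum of 28.5, while in the knockdown library it stayed the lowest, below an α sum of 20.2. Differences between libraries for 1 gene do not depend on the length.

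**Figure D2:**
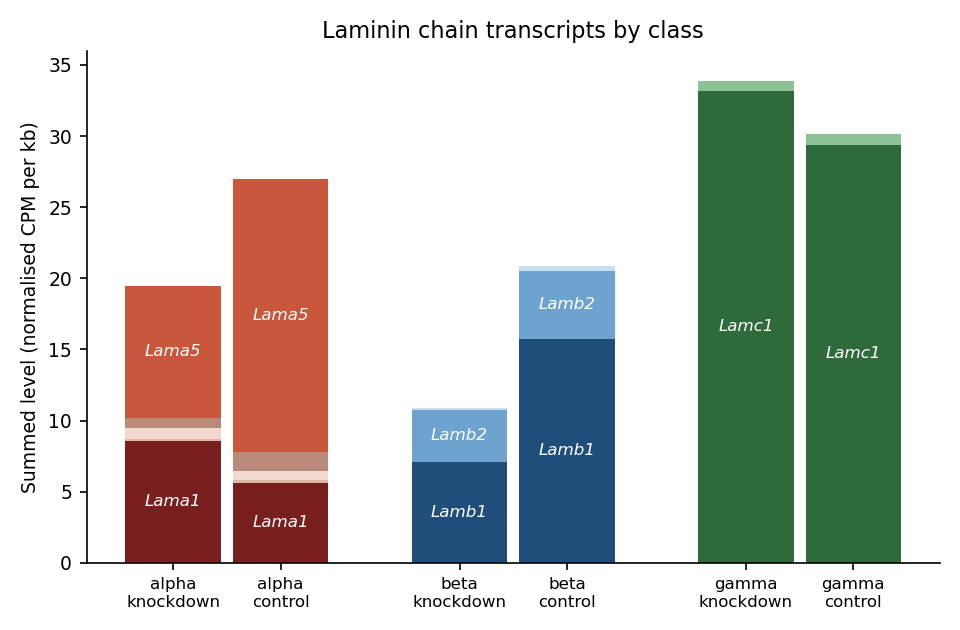
Summed levels of all laminin chain genes by class, in normalised CPM per kb of the deposited gene length (y axis), with the knockdown library left of the control library in each class; segments are genes and there is 1 library per bar. The α bar is 19.5 in knockdown RNA and 27.0 in control RNA, with Lama5 as the segment that differs most, the β bar is 10.9 in knockdown RNA and 20.8 in control RNA, and the γ bar, nearly all Lamc1, is 33.9 in knockdown RNA and 30.2 in control RNA.

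The nidogens link γ1 to collagen IV and can stand in for each other in mice. Nid2 was the more abundant, with 6671 counts in the knockdown library, against 6687 in the control library, and a log2 ratio of -0.09 (-0.14 to -0.04). Nid1 had 3436 counts in the knockdown library, against 4041 in the control library, and was 1.25-fold lower in level (1.19 to 1.31). Neither was called, and both were nearer to no difference than Lamb1 or Lama5. Per kilobase, Nid2 stood at 53.3 in knockdown RNA and 56.8 in control RNA, and Nid1 at 22.2 in knockdown RNA and 27.7 in control RNA. Nid2 shares 437 exonic bases with Rtraf on the opposite strand, and Rtraf had 4237 counts in knockdown RNA and 3041 in control RNA. Since the strand setting of the counting is not given, reads in that stretch cannot be assigned to 1 of the genes. Nid1 shares 143 exonic bases with the antisense gene Gm48682, and the other 8 genes share no exonic base with another annotated gene.

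Hspg2 encodes perlecan, a large heparan sulfate proteoglycan that binds growth factors and the laminin network. It had 2697 counts in the knockdown library, against 4202 in the control library, or 105 normalised CPM in knockdown RNA and 174 in control RNA. Its level was 1.66-fold lower (1.58 to 1.74) and was not called. Sparc encodes a small collagen-binding glycoprotein that is also abundant in parietal endoderm and fibroblasts. It had 3520 counts in the knockdown library, against 5578 in the control library, or 137 normalised CPM in knockdown RNA and 231 in control RNA, a 1.68-fold lower level (1.61 to 1.76) that was not called. There were 0.766 Hspg2 counts per Sparc count in knockdown RNA and 0.753 in control RNA, a ratio of ratios of 1.02 whose interval from 0.953 to 1.09 includes 1.

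The levels spanned a wide range. In the knockdown library the order per kilobase was Nid2 (53.3), Sparc (40.8), Lamc1 (33.2), Nid1 (22.2), Lama5 (9.26), Lama1 (8.56), Hspg2 (7.36), Lamb1 (7.07), Lamb2 (3.68) and Lama4 (0.705). In the control library it was Sparc (68.7), Nid2 (56.8), Lamc1 (29.4), Nid1 (27.7), Lama5 (19.3), Lamb1 (15.8), Hspg2 (12.2), Lama1 (5.61), Lamb2 (4.77) and Lama4 (1.32). Nid2, Sparc, Lamc1 and Nid1 held the upper 4 places and Lamb2 and Lama4 the lowest 2 in both. With 1 library per group there is no spread by which neighbours in these orders could be told apart. Against the control order, Lama1 stood 2 places higher and Lamb1 2 places lower in the knockdown library. By the longest coding transcript Sparc led both orders, at 59.7 in knockdown RNA and 101 in control RNA, ahead of Nid2 at 53.4 in knockdown RNA and 56.9 in control RNA.

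**Figure D3:**
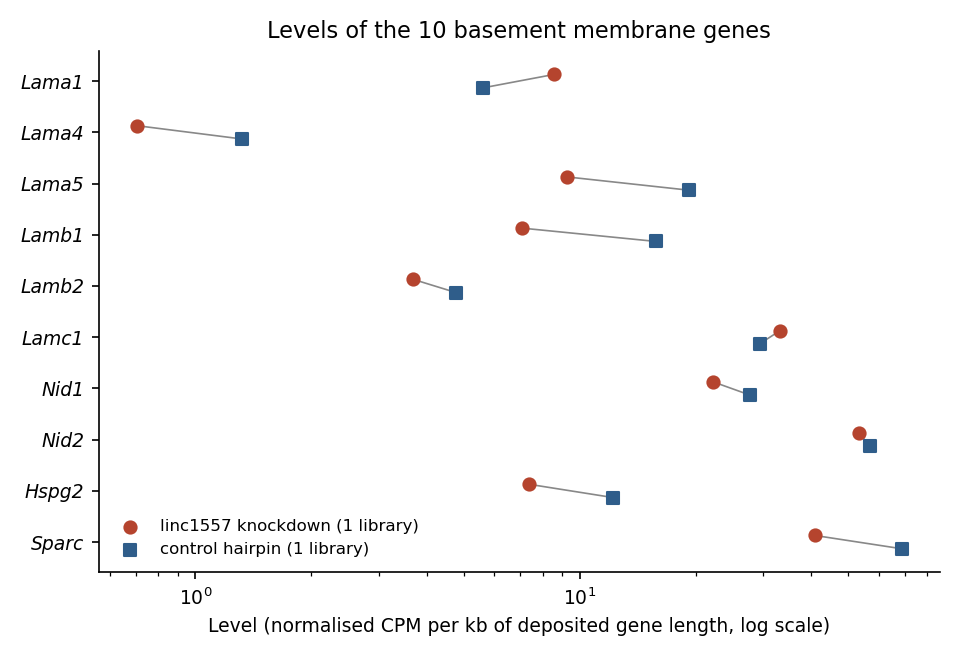
Level of each gene in normalised CPM per kb of the deposited gene length (x axis, log scale), with a circle for the linc1557 knockdown library above a square for the control hairpin library; each symbol is 1 library. Circles lie left of squares for 8 genes, most widely for Lamb1 (7.07 in knockdown RNA and 15.8 in control RNA) and Lama5 (9.26 in knockdown RNA and 19.3 in control RNA), and right of them for Lama1 (8.56 in knockdown RNA and 5.61 in control RNA) and Lamc1 (33.2 in knockdown RNA and 29.4 in control RNA).

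Apart from Sparc, the genes are longer than the median of all entered genes. Their deposited lengths ran from 3367 bases for Sparc to 14307 for Hspg2, with a median of 8895 beside 3527 over all entered genes, and 5 of the 10 were above the 90th percentile. After the log2 ratios were centred in 10 bins of gene length the same 2 genes were called and the median was -0.55. The genes lie on 10 different chromosomes. Because stable clones had been picked, the entered genes within 5 Mb of each were summarised as well. Around Lama5, 107 genes had a median log2 ratio of 0.44, with none called lower and 7 higher. Around Lamb1, 34 genes had a median of 0.19 with 2 lower and 2 higher. Around Lama1, 43 genes had a median of -0.30 with 5 lower and none higher. Nid2 lies on chromosome 14, whose other entered genes had a median of -0.43. The 45 genes within 5 Mb of Nid2 had a median of 0.15 with 1 lower and 1 higher. For the other 6 genes the medians ran from -0.07 around Hspg2 to 0.17 around Nid1. Lower and higher calls were 14 and 7 of 154 around Hspg2, 10 and 4 of 118 around Sparc, and 6 and 1 of 49 around Lama4. They were 5 and 3 of 141 around Lamb2, 5 and 6 of 66 around Lamc1, and 2 and 1 of 35 around Nid1. Over all entered genes 9.48% were called lower and 4.68% higher. Whether differences between clones in these regions played a part was not tested.

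Collagens of the basement membrane had lower values too. Of 9 collagen genes on that list 5 entered, of which 4 were called lower, none was higher, and the median log2 ratio was -1.37. Over all entered genes 9.48% were called lower and 4.68% higher. Col4a1 and Col4a2, the chains of the common collagen IV network, had log2 ratios of -1.35 (-1.45 to -1.25) and -1.43 (-1.54 to -1.32). Col7a1, the anchoring fibril collagen, stood at -1.51 and Col4a5 at -1.37. Col18a1, the most abundant of the list with 4696 counts in knockdown RNA and 7382 in control RNA, was not called (-0.74).

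Further basement membrane components were called lower in 11 of 18 entered genes and higher in none, with a median of -1.18. The share of all entered genes called lower was 9.48%, for this list and the next. That list of 21 includes 5 laminin chains, of which Lama2 and Lamb3 are among the 11. Fras1, which anchors skin epithelium, had 22 counts in knockdown RNA and 161 in control RNA (-2.96), Egflam, also called pikachurin, had 5 in knockdown RNA and 30 in control RNA (-2.67), and the calcium-binding Smoc1 had 121 in knockdown RNA and 562 in control RNA (-2.30). Fras1, Egflam, Lamb3 and Smoc2 reached 1 CPM in the control library alone. Fbln2, a fibulin, was the most abundant of them and was 2.48-fold lower (2.37 to 2.59). The proteoglycan gene Agrn, whose product agrin joins laminin to dystroglycan, was not called, with 2460 counts in knockdown RNA and 2532 in control RNA (-0.13). The entered relatives of Sparc, 5 of 7 on the list, were all called lower, with a median of -1.26. They include Fstl1 (-1.06), Sparcl1 (-1.31), Smoc2 (-1.26, from 16 counts in knockdown RNA and 36 in control RNA) and Smoc1, which along with Smoc2 is on both lists. With a filter of 5 CPM 3 relatives were called lower, beside 728 of all genes that passed it. Spock1, with 5 counts in knockdown RNA and 1 in control RNA, and Spock3, with 3 in knockdown RNA and 6 in control RNA, did not enter.

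Genes that receive or process basement membrane proteins were counted beside the same background of 9.48% called lower. Of 12 laminin receptor genes 1 was called lower, the syndecan gene Sdc2 (-1.70), and none higher, with a median of -0.19. Itgb1, the β subunit of the main laminin-binding integrins, had a log2 ratio of -0.63, and Rpsa, a ribosomal protein also described as a laminin receptor, 0.11. Rpsa has processed pseudogenes, so its count is uncertain. Of the other integrin genes on the list, Itga6 (0.57) and Itga3 (0.42) were above 0, Itga7 (-0.67) and Itgb4 (-0.40) were below, and none was called. The 11 entered genes for the sugar chain of dystroglycan had a median of 0.06; the most abundant by the mean per-length level of the libraries, B3galnt2 and Rxylt1, stood at 0.30 and -0.29. Of 17 genes for assembly and secretion 2 were called lower, none was higher, and the median was -0.11. These were Loxl2, a lysyl oxidase that crosslinks collagen IV (-1.33), and Pxdn, the peroxidase that forms its sulfilimine bonds (-1.17). The collagen chaperone gene Serpinh1 stood at -0.88 and P4hb at -0.32, neither called.

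Markers of other cells that the cultures could hold were compared as well, each list beside the same background of 9.48% called lower and 4.68% higher. The 30 feeder fibroblast markers had a median log2 ratio of -1.36, and 10 of them were not called. Their summed level was 346 normalised CPM per kb in knockdown RNA and 735 in control RNA, and none was at 0 in either. The largest differences were those of Timp3 (-2.66), Col6a3 (-2.44) and Col3a1 (-2.16), while the abundant Fn1 (-0.18) and Vim (-0.35) were not called. Dcn went the other way and was not called, with 511 counts in knockdown RNA and 403 in control RNA (0.26, 0.06 to 0.45). Fibroblasts make several of the 10 basement membrane genes, among them Lama4, Lamb1, Lamc1, Nid1 and Sparc. The part of feeder cells in these differences was not tested.

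Of the 21 primitive and parietal endoderm markers 13 entered, of which 9 were called lower, none was higher, and the median was -1.37. The share of all entered genes called lower was 9.48%. Their summed level was 19.5 in knockdown RNA and 78.4 in control RNA. The keratin genes Krt8 (-3.56) and Krt18 (-3.33) were the most abundant by the mean per-length level of the libraries. In knockdown RNA they stood at 2.27 and 1.84, below Lrp2 at 6.15, and in control RNA at 26.7 and 18.5. Foxa2 had 3 counts in knockdown RNA and 281 in control RNA (-6.64), Sox17 had 2 in knockdown RNA and 154 in control RNA (-6.35), and Gata6 had 9 in knockdown RNA and 142 in control RNA (-4.07). Foxa2, Sox17, Gata6 and Gata4 reached 1 CPM in the control library alone. The 9 calls and the median therefore follow in part from the rule of entry. Lrp2 (0.12) and Thbd (-0.16) were not called. Sox7, which did not enter, went the other way, with 15 counts in knockdown RNA and 6 in control RNA. Cited1, Ttr and Afp were at 0 counts in knockdown RNA and Ttr in control RNA. Of the 10 basement membrane genes, the lowest log2 ratio was -1.16, for Lamb1. The part of endoderm-like cells in the differences of the 10 genes was not tested.

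Endothelial and trophoblast markers were scarce. Of 10 endothelial markers 5 entered, 2 were called lower and 1 higher, with a median of -0.93 and a summed level of 4.53 in knockdown RNA and 8.25 in control RNA. The defining gene Cdh5 had 1 count in knockdown RNA and 3 in control RNA, and Emcn had 1 in knockdown RNA and 0 in control RNA. Flt1 (-3.37) and Kdr (-1.54) were lower and Esam (1.87) was higher, and Egfl7 was not called (-0.52). Kdr reached 1 CPM in the control library alone and Esam in the knockdown library alone. Of 10 trophoblast markers 5 entered, 2 were called lower, Cdx2 (-4.04) and Krt7 (-3.79), and none higher, with a median of -0.36 and a summed level of 8.996 in knockdown RNA and 12.4 in control RNA. Both of these called genes reached 1 CPM in the control library alone. Tfap2c (-0.36) and Prl2c2 (-0.35) were not called, Prl3d1 and Tpbpa were at 0 in both libraries and Elf5 at 0 in the knockdown library. The 14 naive and core pluripotency genes had a median of 0.37 and a summed level of 1590 in knockdown RNA and 1202 in control RNA. Tbx3 was the called gene (1.14), and Dppa5a (0.53) and Tdgf1 (0.85) were the most abundant by the mean per-length level of the libraries.

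**Figure D4:**
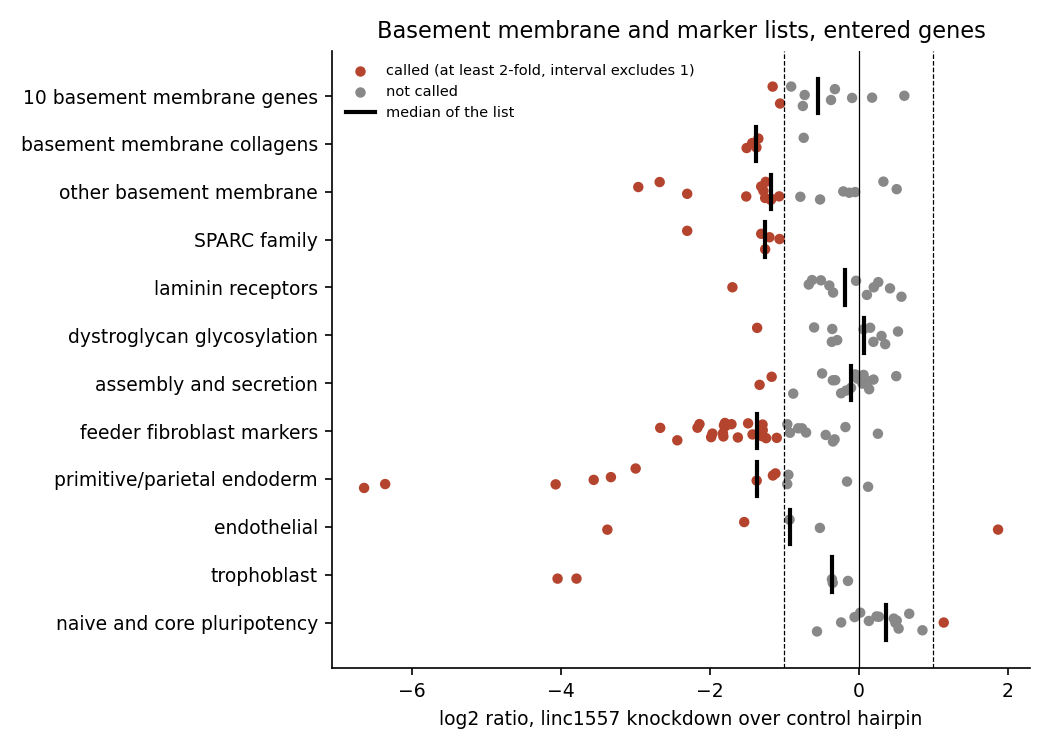
Log2 ratios of the entered genes of each list except the laminin chains, linc1557 knockdown over control hairpin (x axis), 1 row per list and 1 point per gene from 1 library against 1 library. Red points were called, grey ones were not, and black bars are medians. The 10 basement membrane genes have a median of -0.55, between those of the collagens (-1.37), other components (-1.18) and feeder fibroblast markers (-1.36) on the lower side and the laminin receptors (-0.19) and pluripotency genes (0.37).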

How the data were processed

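The deposited table holds raw counts of reads for 1 linc1557 knockdown and 1 control hairpin library, beside a gene length column of unstated origin. Trizol extraction and an Illumina TruSeq RNA kit are named, per the labels' protocols. The tools named are Trim Galore, HISAT2, featureCounts and DESeq, with builds mm10 and GRCm38, per the submitters' processing notes; for versions, annotation release, strand and multi-mapping settings the entry is: not given in the sources used here. Symbols and coordinates came from GENCODE on GRCm38, which matched 46488 of 46983 identifiers. For 6 of the 10 genes its merged exon length equalled the deposited length.

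TMM factors were 0.960 (knockdown) and 1.04 (control) (edgeR 4.0.16, R 4.3.3). Ratios have no pseudocount, counts of 0 take a floor of 3 counts, and intervals are exact Clopper-Pearson intervals (Python 3.11.15, scipy 1.17.1). No test across replicates could be made. The call rule was tried on simulated counts that held counting error alone and no planted difference near the 2-fold threshold. That trial cannot speak to spread between cultures or clones, or to genes near the threshold. The 10 genes and 12 further lists were chosen with earlier results of these data known. Named were the 10 genes and, of each list, up to 3 called genes of largest change and up to 2 of the most abundant by mean per-length level; further genes were named after their values were seen. Alternatives were scaling by total counts, DESeq2 1.42.0 size factors or protein-coding genes, other filters, a prior count, centring by length, other fold thresholds and other lengths. The windows of 5 Mb, ratios between genes, promoter motifs and the longest coding transcript were added after seeing the data. Some genes of these lists are not reported here.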

Additional observations from a re-analysis of the deposited data

How the results depend on the processing

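No paired analysis was possible because there was 1 library per group, and none could be left out. Lamb1 and Lama5 were called lower under all 7 alternatives of scaling, filter, prior count and centring. Under total counts Lama4 was called as well, 8 of the 10 log2 ratios moved beyond their counting intervals, and the median of the 10 genes was -0.67. None of the 10 changed direction. At a 1.5-fold threshold 5 of the 10 were called lower (Lamb1, Lama5, Lama4, Sparc and Hspg2) and 1 higher (Lama1), and at 4-fold 0 were called lower. Among all 15850 entered genes 2598 were called lower and 1817 higher at 1.5-fold, and 389 were called lower at 4-fold. Of 133 entered genes on the other lists 55 were called lower and 2 higher, beside 9.48% and 4.68% of all entered genes. At 4-fold 16 were called lower and 0 higher, at 1.5-fold 69 and 4, and with a filter of 5 CPM 44 and 1. That filter left 6 lower calls among other basement membrane components, 2 among laminin chains and 3 among relatives of Sparc. It left 1 among endothelial and 0 among trophoblast markers, 4 among the collagens, 8 among endoderm and 19 among feeder markers. Over all genes that passed it, 728 were called lower and 330 higher. How many genes passed, in all or on each list, is not given here, so these counts cannot be read as shares. Per kilobase of the median coding transcript length, which annotated fragments shorten, down to 409 bases for Lamb2, the median level of the 10 genes was 17.3 in knockdown RNA and 27.8 in control RNA. The α sum was then 20.7 in knockdown RNA and 29.2 in control RNA, the β sum 67.6 in knockdown RNA and 99.6 in control RNA, and the γ sum 61.7 in knockdown RNA and 54.9 in control RNA. Per kilobase of the longest coding transcript the median was 10.7 in knockdown RNA and 23.1 in control RNA, the control α sum 28.5, the β sum 16.3 in knockdown RNA and 32.6 in control RNA, and the γ sum 37.1 in knockdown RNA and 33.1 in control RNA. The order of the classes thus depended on the length used, while the β sum was lower in the knockdown library by each length. At 218 knockdown and 385 control counts the interval of Lama4 spans 2-fold, so depth limits that gene.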
